A study of Zea mays with 2 samples.

Results

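The genes described here are those of the ubiquitin system of maize (Zea mays), the machinery that tags proteins with ubiquitin or its relatives and removes the tags again. They were chosen by words in the deposited gene descriptions (ubiquitin, F-box, U-box, cullin, SKP1, RING-H2 or SUMO, with proteasome and ribosomal entries left out) and by a deposited value of 1 or more in either file. Of 41406 listed genes, 189 carried such a description and 165 of these reached the level. A description was missing for 20161 genes, so the 165 need not stand for the whole system. One library came from endosperm with the genotype entry dek40 and 1 from wild-type endosperm, both of kernels 12 days after pollination. The endosperm fills with starch and storage protein as the kernel grows, and dek names the class of defective kernel mutants. The title and design text of the series name dek41 where the sample entries name dek40, so the mutant is called the library labelled dek40. The kind of allele, the number of kernels pooled and the way the endosperm was separated are not stated in the labels used here.

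Ubiquitin is a small protein that is made as tandem repeats or as a fusion with another protein and then cut free. An activating enzyme (E1) charges it, a conjugating enzyme (E2) takes it over, and a ligase (E3) joins it to a chosen target. Chains of ubiquitin send many targets to the proteasome for degradation, while deubiquitinases trim or remove the chains. In the SCF type of ligase, a cullin scaffold and an SKP1 adaptor carry one of many F-box proteins, which recognise the targets. SUMO and the ubiquitin-fold modifier UFM1 are related tags with their own E1 and E2 enzymes.

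Values are given as deposited, in FPKM (fragments per kilobase of gene, scaled to library size) for the wild type and in RPKM (the same for reads) for the library labelled dek40. The median gene, over those at 1 or more in both files, was 1.34-fold higher in the dek40 values, or 0.42 on the log2 scale. Those values were therefore multiplied by 0.747, and a log2 ratio is that of scaled dek40 to wild type, with a pseudocount of 1 that pulls low genes towards 0. A gene is called higher or lower at a difference of 2-fold or more, giving a log2 ratio of 1 or more in size. Intervals in brackets are exact Clopper-Pearson 95% intervals of the ratio without a pseudocount. They rest on the smallest whole reads that fit the deposited values, with medians of at least 154 reads per member in the wild type and 183 in dek40, and cover counting error only. With 1 library per genotype replicate spread could not be measured, and no test was run.

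Genes that mark the endosperm, such as zeins, made up 16.6% of all summed FPKM in wild type and 2.70% of all summed RPKM in the library labelled dek40. All 27 of them reached the level of 1. The 3 aleurone markers made up 0.192% and 0.571% of these sums. Markers of the basal transfer layer made up 0.0216% and 0.00317%, those of the embryo 0.0541% and 0.0427%, and those of green maternal tissue 0.00294% and 0.00214%. The part of these shifts in the values below was not tested. In bulk tissue, fewer cells of a type and less RNA per cell cannot be told apart.

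Most ubiquitin-system genes stood within 2-fold of the wild type. Of the 165 members, 7 were higher in the library labelled dek40, or 4.24%, where 6.12% of all 29142 genes at the same level and 6.58% of those with a description were higher. Lower were 5 members, or 3.03%, against 4.82% of all genes and 4.37% of described ones. With the pseudocount of 1, none of the 165 differed by 4-fold, where 0.607% of all genes were higher and 0.765% lower by that much. Without it some low members passed 4-fold in either direction, such as GRMZM2G041141 at 4.11 and AC233922.1_FG008 at -2.28. By 1.5-fold 20 members were higher and 17 lower, against 17.3% and 13.1% of all genes, which left 128 members (77.6%) within 1.5-fold. The median log2 ratio was -0.09 over members (interquartile range -0.35 to 0.22), against 0.04 over all genes. The sign of that median depends on the scaling. It was 0.29 with the values as deposited and 0.14 with libraries scaled to equal sums without zeins, and the all-gene median was then 0.39 and 0.25. The member median was under the all-gene median by 0.13 after scaling, by 0.10 as deposited and by 0.11 with equal sums. A scaling shifts all genes almost alike, so this order could hardly differ between scalings. The split of calls moved as well: 7 of 12 called members were higher after scaling, 14 of 15 as deposited (where 14.7% of all genes were higher and 2.65% lower) and 11 of 12 with equal sums. Of the 5 lower members 1 was still called as deposited or with equal sums. With a pseudocount of 5, 2 of the 7 higher members kept the call, the SUMO E2 gene GRMZM2G341089 and the RING-H2 gene GRMZM2G030341, as did 4 of the 5 lower ones.

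**Figure D1:**
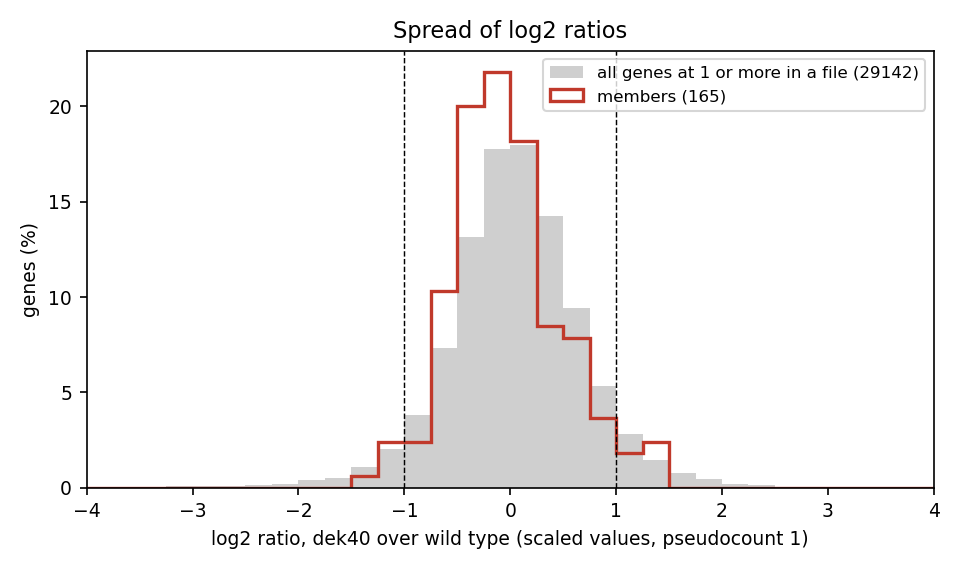
Distribution of log2 ratios (dek40 over wild type, scaled values) over the 165 ubiquitin-system genes, in red outline, and over all 29142 genes at the same level, in grey, as a percentage of each set. Dashed lines mark 2-fold; the members lie between -1.46 and 1.43, while all genes run from -6.11 to 6.06, past the ends of the axis.

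Of the members, 150 were at 1 or more in both files, 14 in the library labelled dek40 alone and 1 in the wild type alone. A member that passed only through dek40 had to be on the high side of the deposited values, so counts over low members carry this choice. The lowest members inside the threshold were F-box genes, GRMZM2G074844 with 0.736 FPKM and 1.01 RPKM, and GRMZM5G827365 with 0.543 FPKM and 1.03 RPKM. Just outside were a U-box kinase gene, GRMZM2G101754, with 0.464 FPKM and 0.993 RPKM, and an F-box gene, GRMZM2G084035, with 0.712 FPKM and 0.981 RPKM. With all 189 matched genes counted, the calls were again 7 higher and 5 lower.

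**Figure D2:**
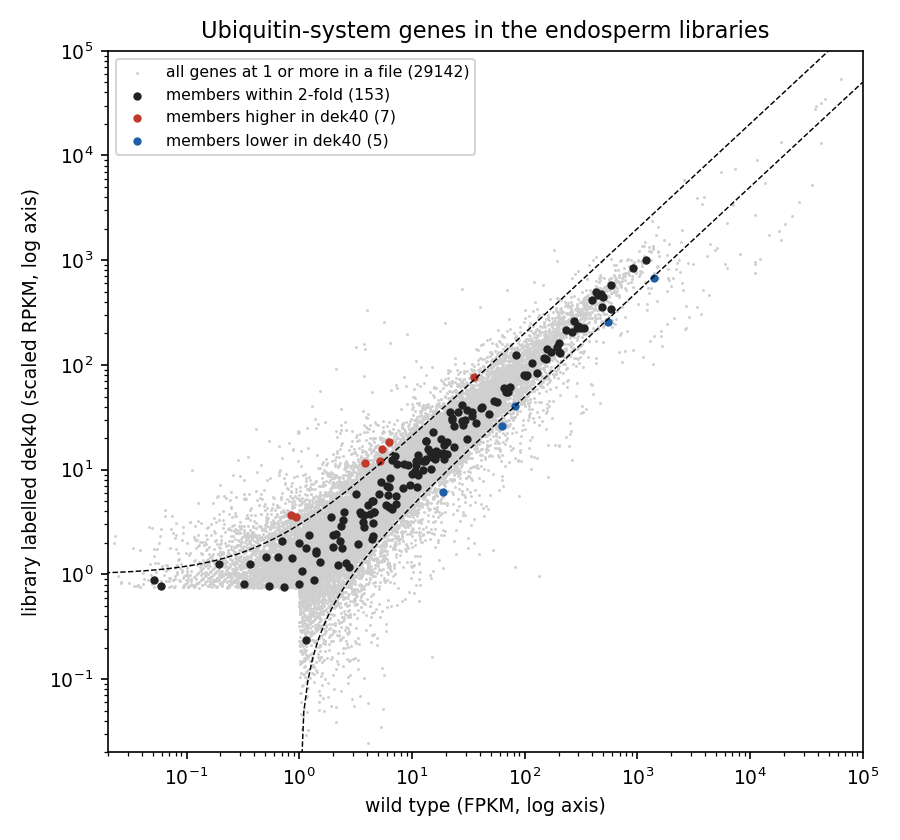
Level of each gene in the wild type (FPKM, x axis) and in the library labelled dek40 (scaled RPKM, y axis), both on log axes. Grey points are all 29142 genes at the level, black points the 153 members within 2-fold, red points the 7 higher and blue points the 5 lower ones; dashed lines mark 2-fold after a pseudocount of 1.

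Genes grouped as ubiquitin precursors stayed within 2-fold of the wild type after scaling, and 10 of 11 within 1.5-fold. The median log2 ratio of these 11 genes was -0.13 after scaling and 0.29 as deposited. Higher were 0 and lower 0, beside 6.12% and 4.82% of all genes. The group was among the most abundant members at up to 915 FPKM and 1117 RPKM. The most abundant in the wild type was a ubiquitin fusion gene, GRMZM2G047727, with 915 FPKM in wild type and 1117 RPKM in dek40. Its log2 ratio was -0.13 (-0.22 to -0.04). A polyubiquitin-like gene, GRMZM2G047732, stood at 589 FPKM and 769 RPKM, giving a log2 ratio of -0.04 (-0.09 to 0.02). The gene table lists the alias RPS27A for it, a name that stands for a ubiquitin fused to a ribosomal protein.

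The Ubiquitin2 gene GRMZM2G409726 was the lowest of this group, with 580 FPKM in wild type and 457 RPKM in dek40. Its log2 ratio was -0.76 (-0.80 to -0.73), which is within 2-fold. Other genes described as Ubiquitin2 were less far apart, GRMZM2G419891 at -0.42 (483 FPKM and 482 RPKM) and GRMZM2G118637 at -0.15 (159 FPKM and 191 RPKM). Ubiquitin genes are near-identical repeats that share reads, so the split between copies is uncertain. Summed over the 8 genes whose descriptions name ubiquitin itself, the level was 3464 FPKM and, after scaling, 3005 in dek40, giving a log2 ratio of -0.21. As deposited the dek40 sum was 4021 RPKM, above the wild type.

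The group of precursors also took genes that do not make ubiquitin. UFD1, described as ubiquitin fusion degradation protein 1, works with the segregase CDC48 to draw tagged proteins out of membranes and complexes. Its genes had log2 ratios of -0.51 (GRMZM2G114220, 23.7 FPKM and 21.8 RPKM) and -0.36 (GRMZM2G037185, 71.4 FPKM and 74.0 RPKM). The 1 gene described as CDC48, AC233949.1_FG004, was at 50.2 FPKM and 130 RPKM, giving a log2 ratio of 0.94 (0.88 to 1.03). UFD1 and CDC48 thus had ratios of opposite sign after scaling. As deposited CDC48 was past 2-fold at 1.36, and the UFD1 genes were at -0.11 (GRMZM2G114220) and 0.05 (GRMZM2G037185). For GRMZM2G037185 the opposite sign therefore rests on the scaling. Ubiquitin-like protein 5, GRMZM2G132000, takes part in splicing in yeast and in the mitochondrial stress response of Caenorhabditis elegans. It was at 395 FPKM and 562 RPKM, giving a log2 ratio of 0.09 (-0.02 to 0.19).

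Among the other tags, UFM1 was lower and SUMO was not. UFM1 is joined to ribosomes at the endoplasmic reticulum in human cells. Its gene GRMZM2G171430 was the most abundant member of all in the wild type, with 1401 FPKM, and stood at 915 RPKM in dek40. The log2 ratio was -1.03 (-1.09 to -0.98), and -0.61 as deposited, so the call rests on the scaling. The gene described as ubiquitin-activating enzyme E1 domain-containing protein 1 (GRMZM2G360589), an older name of the human E1 of UFM1, was at 156 FPKM and 154 RPKM. Its log2 ratio was -0.43 (-0.51 to -0.36), and -0.01 as deposited.

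The SUMO genes GRMZM2G082390 (492 FPKM and 600 RPKM) and GRMZM2G053898 (473 FPKM and 637 RPKM) had log2 ratios of -0.13 and 0.01. A subunit of the SUMO E1, described as ubiquitin-like 1-activating enzyme E1A (GRMZM2G149108), was at 0.27, from 30.9 FPKM to 50.2 RPKM. The SUMO E2 is named E2 I in human, and 3 genes with that name differed from each other. GRMZM2G070047, the most abundant, was at 150 FPKM and 157 RPKM, giving a log2 ratio of -0.35 (-0.48 to -0.23). GRMZM2G063931 was at 34.0 FPKM and 43.2 RPKM, giving a log2 ratio of -0.07. GRMZM2G341089 had the highest log2 ratio of all members, 1.43 (1.09 to 2.06), with 6.28 FPKM in wild type and 24.9 RPKM in dek40. Even so it stayed well under its abundant relative in both libraries. URM1 (GRMZM2G179689), a modifier that also carries sulfur for transfer RNA in yeast, was at 18.1 FPKM and 26.2 RPKM, giving a log2 ratio of 0.11.

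The E2 conjugating enzymes were the largest group and leaned to the low side. Of 41 genes, 34 had a log2 ratio under 0, or 82.9%, against 46.9% of all genes. By 2-fold 2 were higher and 2 were lower, or 4.88% each, near the 6.12% and 4.82% of all genes. Their median was -0.29 after scaling, -0.04 with equal sums and 0.11 as deposited. After scaling, 34 of the 41 lay below the median of all genes. Another scaling shifts that median along with the genes, so the same count under the others adds no support. The 15 E2 genes at 100 FPKM or more in the wild type were all below that median, and their own median was -0.37 after scaling. This cut is on the wild-type value, the denominator of the ratio, so it favours low ratios. No share of all genes under the same cut is given, so these 15 add no support. Summed over the group, the level was 5463 FPKM in wild type and 4218 in dek40 after scaling, giving a log2 ratio of -0.37, or 5644 RPKM as deposited.

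The most abundant E2 gene encodes an enzyme of the E2-17 kDa type, which works with many ligases. This gene, GRMZM2G102471, was at 1203 FPKM and 1353 RPKM, giving a log2 ratio of -0.25 (-0.30 to -0.21) that was 0.17 as deposited. The other genes with the same description, GRMZM2G074479 and GRMZM2G022206, were at -0.60 and -0.49. The spm2 genes GRMZM2G027378 (205 FPKM and 175 RPKM) and GRMZM2G071010 (195 FPKM and 199 RPKM) were at -0.65 and -0.39. The E2 N type builds a kind of chain used in DNA repair and signalling, and its genes GRMZM2G115828 and GRMZM2G015287 were at -0.36 and -0.06.

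The lower E2 genes were an unnamed family member and an E2-21 kDa gene. GRMZM2G156517 was at 547 FPKM in wild type and 341 RPKM in dek40, giving a log2 ratio of -1.10 (-1.18 to -1.02). GRMZM2G053764, of the E2-21 kDa type, was at 82.1 FPKM and 53.9 RPKM, giving a log2 ratio of -1.01 (-1.21 to -0.85). Both were within 2-fold as deposited, at -0.68 and -0.60. The other E2-21 kDa gene, GRMZM2G150867, was at -0.24.

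The E2 genes on the high side were of low or middle abundance. The E2 X gene GRMZM2G007057 was at 3.85 FPKM and 15.4 RPKM, giving a log2 ratio of 1.37 (1.10 to 2.08), and was called higher with the SUMO E2 gene above. GRMZM2G113396, one of the E2 E3 type, was at 7.04 FPKM and 18.2 RPKM, giving a log2 ratio of 0.86 (0.52 to 1.40), while the other gene of this type, GRMZM2G072506, was at -0.14. The E2S gene GRMZM2G153924 was at 21.7 FPKM and 47.5 RPKM, giving a log2 ratio of 0.69 (0.49 to 0.93). In human cells E2S lengthens chains on targets of the anaphase-promoting complex, the ligase that ends mitosis. Subunits of that complex, 2 genes outside the members, had a median of -0.09.

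**Figure D3:**
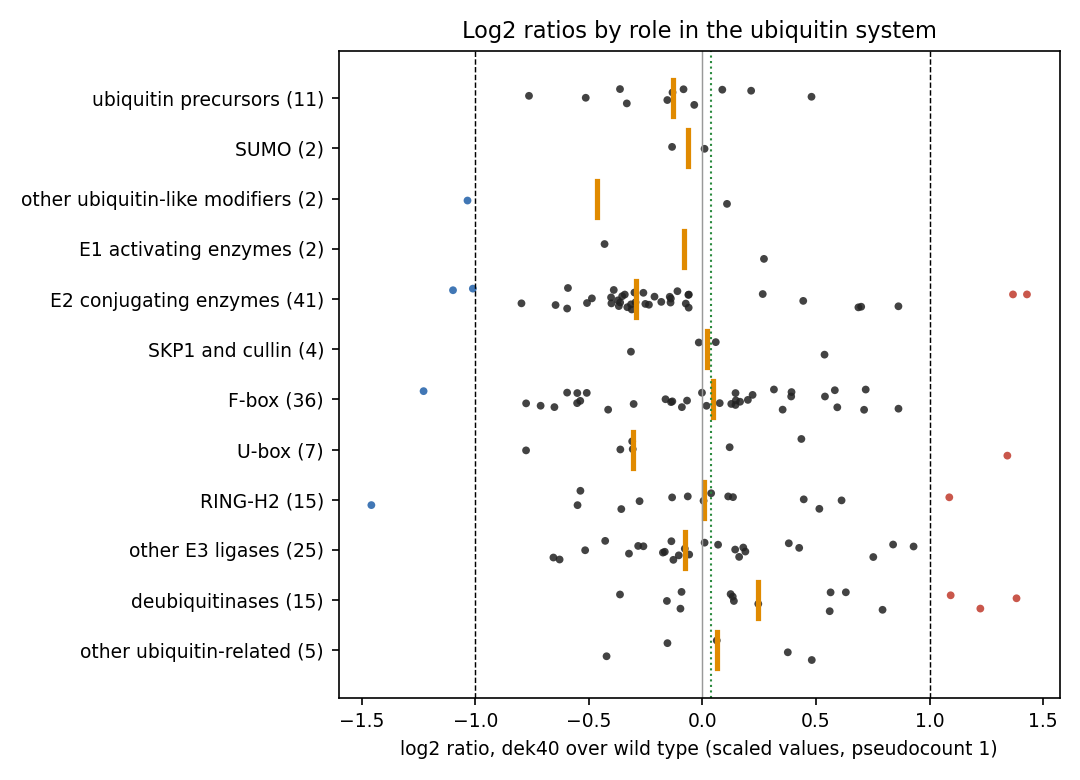
Log2 ratio of each of the 165 members (scaled values, x axis) by role, with the number of genes in brackets. Orange bars are group medians and the dotted green line is the all-gene median of 0.04. Dashed lines mark 2-fold, and red and blue points are higher and lower genes. Left of 0 lie 34 of 41 E2 genes (8 of 41 as deposited), beside 46.9% of all genes after scaling. Right of it lie 11 of 15 deubiquitinases (15 of 15 as deposited).

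The scaffold genes of SCF ligases stayed within 2-fold, 4 of 4, where 6.12% of all genes were higher and 4.82% lower. The SKP1-like gene GRMZM2G101446 was at 452 FPKM and 630 RPKM, giving a log2 ratio of 0.06 (-0.003 to 0.12). The other SKP1-like genes were far less abundant, GRMZM2G032562 at 16.1 FPKM and -0.31, and GRMZM2G074282 at 3.72 FPKM and -0.02. Cullin-1 (GRMZM6G188781) was at 15.4 FPKM and 30.6 RPKM, giving a log2 ratio of 0.54 (0.35 to 0.78). The COP9 signalosome switches cullins by removing a small tag. Its 8 genes, outside the members, had a median of 0.18 (0.59 as deposited), with 0 past 2-fold.

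F-box genes, the target receptors, were mostly at low levels, with a median of 3.98 FPKM. Of 36 genes 1 was lower and 0 were higher, where 4.82% of all genes were lower and 6.12% higher. The median log2 ratio was 0.05. The 11 at 10 or more in either file had a median of -0.16 and the 25 below it one of 0.13. Some of these 25 passed the level through dek40 alone, so this contrast carries the choice of genes. Counting every matched F-box gene (45) brought the group median to 0.02. Keeping only those at 5 or more (17) brought it to -0.16. The F-box gene called lower, the F-box/LRR-repeat gene GRMZM2G138176, was at 63.0 FPKM and 35.2 RPKM. Its log2 ratio was -1.23 (-1.41 to -1.11), or -0.82 as deposited. A gene named FBL2, GRMZM2G153075, was at 31.1 FPKM and 26.0 RPKM, giving a log2 ratio of -0.65 (-0.87 to -0.49). The most abundant F-box gene, GRMZM2G119650, has no further name. It was at 201 FPKM and 178 RPKM, giving a log2 ratio of -0.60 (-0.67 to -0.53).

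The F-box genes named for plant hormone pathways were at 4.41 FPKM or less in the wild type. GID2 degrades repressors of gibberellin response in rice. Its genes GRMZM2G440543 and GRMZM2G459166 were at 4.41 FPKM and 2.89 RPKM, and at 0.990 FPKM and 1.09 RPKM, with log2 ratios of -0.78 and -0.13. The EIN3-binding F-box gene GRMZM2G137582, which in Arabidopsis damps the ethylene response, was at 0.646 FPKM and 1.98 RPKM, giving a log2 ratio of 0.59 (0.42 to 2.04). The highest F-box ratio was 0.86, for GRMZM2G005486, at 0.702 FPKM and 2.80 RPKM. This gene and the EIN3-binding gene passed the level through dek40 alone, so their place on the high side came with the choice of genes.

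RING-H2 proteins are single-chain ligases, many of them anchored in membranes (the ATL family). Their log2 ratios ran from -1.46 to 1.09 around a median of 0.00 over 15 genes. The lowest of all members was the ATL2K gene GRMZM2G028234, with 18.7 FPKM in wild type and 8.27 RPKM in dek40. Its log2 ratio was -1.46 (-1.98 to -1.23), and it was the 1 member still past 2-fold on the low side as deposited, at -1.09. The other ATL2K gene, GRMZM2G534288, was at 3.34 FPKM and 2.63 RPKM, giving a log2 ratio of -0.55. On the other side, the ATL3I gene GRMZM2G030341 was the most abundant RING-H2 gene, at 35.4 FPKM and 102 RPKM, with a log2 ratio of 1.09 (0.73 to 1.5).

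The U-box group held 7 genes with a median of -0.31 (0.06 as deposited), most of them described only as RING/U-box. One, the U-box kinase gene GRMZM2G305822, was higher, from 0.847 FPKM to 4.93 RPKM, giving a log2 ratio of 1.34 (1.5 to 2.80 without a pseudocount). This gene passed the level through dek40 alone. The most abundant, GRMZM2G461447, was at 22.7 FPKM and 41.6 RPKM, giving a log2 ratio of 0.44 (0.33 to 0.58).

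With the pseudocount of 1, log2 ratios of the other E3 ligases had the smallest SD among the groups of 15 or more (0.42 over genes). Past 2-fold in either direction were 0 of 25, where 6.12% of all genes were higher and 4.82% lower. As deposited 2 were higher, against 14.7% of all genes. Without a pseudocount, log2 ratios of the 25 ran from -1.02 to 4.11, so their small SD rests on the pseudocount. Their median was -0.08, and 0.29 without scaling. The most abundant was SINAT4 (GRMZM2G061624), a ligase of a family first known from Drosophila, at 34.0 FPKM and 47.8 RPKM, giving a log2 ratio of 0.07. The 5 SINAT genes had log2 ratios from -0.43 to 0.43. COP1 (GRMZM2G104920), which in Arabidopsis represses light responses in the dark, was at 4.57 FPKM and 5.31 RPKM, giving a log2 ratio of -0.17. CIP8 (GRMZM2G123212), a partner of COP1 in Arabidopsis, was at -0.06, and a HECT ligase (GRMZM2G374574) at -0.26. The lowest at 10 FPKM or more was a ubiquitin-protein ligase gene, GRMZM2G476914, at 11.2 FPKM and 9.19 RPKM, giving a log2 ratio of -0.63 (-0.99 to -0.42).

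A further 3 ligase genes were almost unread in the wild type and stayed under the 2-fold call through the pseudocount. GRMZM2G041141 was at 0.0509 FPKM and 1.18 RPKM, on at least 1 and 21 reads. GRMZM2G028014 was at 0.0595 FPKM and 1.05 RPKM, on at least 1 and 16 reads. GRMZM2G053511 was at 0.193 FPKM and 1.70 RPKM, on at least 2 and 16 reads. Without a pseudocount their log2 ratios were 4.11 (1.48 to 9.48), 3.72 (1.03 to 9.11) and 2.72 (0.63 to 5.88). They were chosen after their values were seen, and all are among the 14 members that passed the level through dek40 alone.

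Deubiquitinases leaned to the high side. Of 15 genes, each described as a ubiquitin carboxyl-terminal hydrolase, 3 were higher, 0 were lower and 11 had a log2 ratio above 0. Among all 29142 genes 6.12% were higher, 4.82% were lower and 15462 were above 0. Their median was 0.25 after scaling, 0.49 with equal sums and 0.64 as deposited. After scaling 11 of 15 lay above the all-gene median, an order that the other scalings could hardly alter. GRMZM2G113821 was at 5.41 FPKM in wild type and 21.0 RPKM in dek40, giving a log2 ratio of 1.38 (1.20 to 1.89). GRMZM2G017789, described as isozyme L3, was at 5.19 FPKM and 16.3 RPKM, giving a log2 ratio of 1.09 (0.78 to 1.70). GRMZM2G447056 was at 0.942 FPKM and 4.73 RPKM, giving a log2 ratio of 1.22. It passed the level through dek40 alone, so its place on the high side came with the choice of genes. All of the higher ones were of low abundance in the wild type, and none kept the call with a pseudocount of 5.

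The other 12 deubiquitinases were within 2-fold after scaling, at both low and high levels. GRMZM2G017086 was at 83.7 FPKM and 166 RPKM, giving a log2 ratio of 0.56 (0.49 to 0.65). GRMZM2G327635 was at 27.9 FPKM and 55.7 RPKM, giving a log2 ratio of 0.56 (0.44 to 0.71), and GRMZM2G091069 at 6.69 FPKM and 16.5 RPKM, giving a log2 ratio of 0.79 (0.52 to 1.25). The most abundant one, GRMZM2G016323, had the lowest ratio of the group, -0.36 (-0.43 to -0.31), at 104 FPKM and 108 RPKM. A further pair described as ubiquitin thiolesterases, an older term for the same activity, were grouped with the other ubiquitin-related genes. They were at 0.38 (GRMZM2G097739, 22.8 FPKM and 40.0 RPKM) and 0.48 (GRMZM2G429237, 13.2 FPKM and 25.3 RPKM), and with them 13 of 17 genes were above 0.

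**Figure D4:**
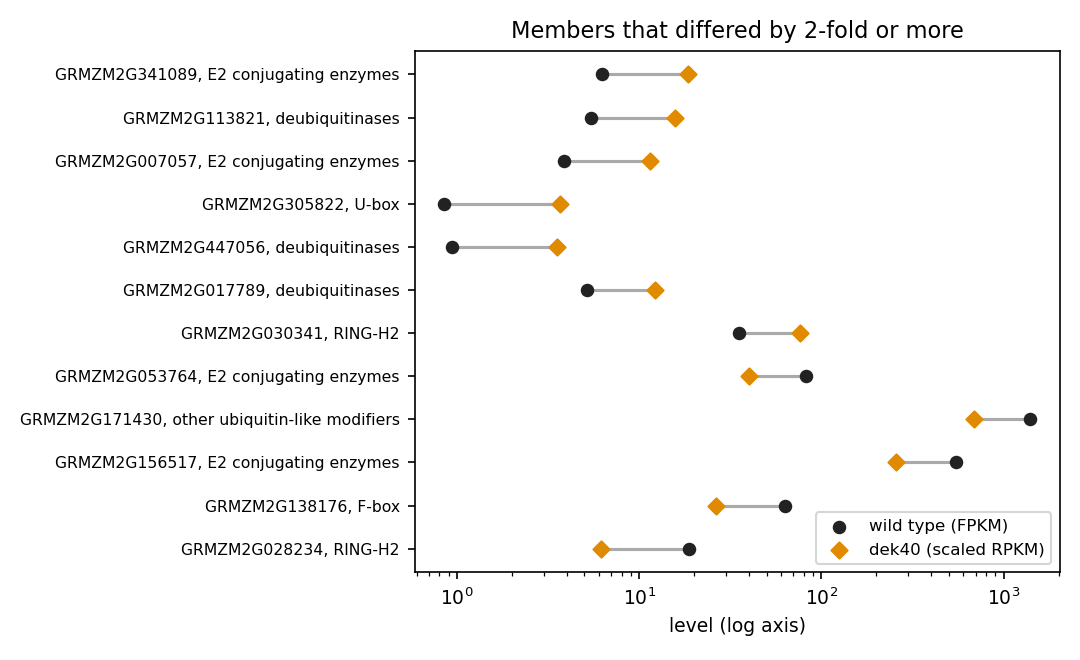
Level of the 12 members that differed by 2-fold or more, in the wild type (FPKM, circles) and in the library labelled dek40 (scaled RPKM, diamonds), on a log axis. The 7 higher genes at the top lay at 35.4 FPKM or less in the wild type, and the 5 lower genes at the bottom between 18.7 and 1401 FPKM; as deposited, only the lowest of these 5 stayed past 2-fold.

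Abundant members had lower ratios than rare ones. Of 30 members with a mean level of 100 or more over the libraries, 25 had a log2 ratio under 0, with a median of -0.34. Among all 1459 genes at that level 55.4% were under 0, with a median of -0.06. Of 51 members under a mean level of 5, 20 were under 0, or 39.2%, against 42.7% of all genes there. The 14 members that passed the level through dek40 alone are all among these 51. The contrast between abundant and rare members therefore carries the choice of genes. E2 genes made up 14 of the 30, all of them under 0. Of the other 16, 11 were under 0, beside the 55.4% of all genes at that level, and no difference was tested. These counts use the scaled values. As deposited, 5 of the 15 E2 genes at 100 FPKM or more in the wild type were under 0.

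Sets of members that share a description are given without a share for members of unlike description. Likeness between copies can therefore not be read from these counts. Over all members the SD of log2 ratios was 0.51. Among 18 sets of 2 or 3 members with the same specific description (39 genes), 16 spread over less than 1 on the log2 scale and 12 over less than 0.5. The exceptions were the E2 E3 set, with a spread of 1.00, and the pair described as E2 I alone, with one of 1.78. In the latter the less abundant gene was the higher one and the abundant gene was slightly lower. Copies in a set can share reads, which would draw their ratios together, and how such reads were counted is not given in the sources.

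Genes of neighbouring parts of the pathway are given beside the 6.12% higher and 4.82% lower of all genes, and, for the values as deposited, beside 14.7% higher and 2.65% lower. RING finger genes outside the members, 122 by description, had a median of 0.03 with 2 higher and 2 lower, and as deposited 9 were higher and 1 lower. BTB/POZ genes, which include adaptors of another cullin ligase, had 0 of 9 past 2-fold and a median of 0.07. Autophagy genes, whose pathway uses E2-like enzymes to attach ubiquitin-like proteins, had 0 of 13 past 2-fold and a median of -0.30, which was 0.10 as deposited. Among 40 proteasome genes, 4 were higher and 0 lower, and as deposited 12 were higher and 0 lower. Their median was 0.22, and 0.63 without scaling. The highest was a beta subunit gene, GRMZM2G124417, at 7.27 FPKM and 86.5 RPKM, giving a log2 ratio of 2.99. No difference between these groups of genes and the members was tested.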

How the data were processed

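The files as deposited by the authors give each gene a single value, headed RPKM for the library labelled dek40 and FPKM for the wild type, per the file headers. The submitters' processing notes name Bowtie2 2.1.0 and the maize build B73 RefGen v3. Nothing in the sources used here gives the counting, annotation or gene filters. Both files list 41406 genes, 0 of them at a value of 0. Multireads and copies may therefore be split in ways not known here, and genes read in 1 library alone are not analysed here.

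The dek40 values were scaled by 0.747 to a median gene ratio of 1 over 25115 genes at 1 or more in both files. Log2 ratios used a pseudocount of 1, and calls a 2-fold difference. Deposited ratios were whole-number fractions times 1.10 for all 41406 genes (relative tolerance 1e-12), with implied totals of 15669149 (wild type) and 14218436 (dek40) up to a common factor. The smallest reads that also give a gene length in whole bases summed to 86.5% and 86.3% of these. They gave the counting intervals; no count test was run on them, since there is 1 library per genotype. Scaling and read recovery were tested on simulated data.

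Members and lists were chosen with earlier results of these data known. Each member took the first of 12 role groups its description matched. Named are the 10 highest and 10 lowest log2 ratios among the 103 members at 10 or more in either file, the 5 highest wild-type values and the highest of each role (30 genes), besides genes shown for their role, their copies or wrong matches, which were picked with values in view. Of the 165 members, 143 matched a RefSeq gene table (Zm-B73-REFERENCE-NAM-5.0), used for aliases only because its build differs; no coordinates or sequences are given. Alternatives were other scalings, pseudocounts, minimum levels and folds. Python 3.11.15, pandas 2.3.3, numpy 2.4.6, scipy 1.17.1 and matplotlib 3.10.9 were used.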

Additional observations from a re-analysis of the deposited data

How the results depend on the processing

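The scaling decides most. With the values as deposited, 14 members were higher and 1 lower, and the medians were 0.29 over members, 0.36 for SUMO, 0.33 for E1, 0.11 for E2, 0.40 for F-box, 0.29 for other E3 ligases and 0.29 for ubiquitin precursors. With equal sums without zeins, a shift of 0.26, 11 were higher and 1 lower, and the medians were 0.14 over members, 0.20 for SUMO, -0.044 for E2 and 0.27 for F-box. Leaving zeins and genes at 1000 or more out of the scaling kept all 7 higher and 5 lower members. A pseudocount of 0.1 gave 15 higher and one of 5 gave 2. At 1.5-fold 20 were higher (background 17.3%) and 17 lower (13.1%), and at 4-fold 0 and 0 (0.607% and 0.765%). The counts at 4-fold rest on the pseudocount of 1, without which some low members passed 4-fold. Without a minimum level 7 and 5 were called, and at a minimum of 5 it was 5 and 5. No named gene called by 2-fold changed sign under any of these alternatives. Low depth limits members under 1 FPKM. Counting intervals left out 0 for 85 of 165 members, with no share over all genes to set beside them. These intervals cover counting error only and 0 moves with the scaling, so the 85 are not a count of changed members. No paired analysis was possible because there is 1 library per genotype and no test; for the same reason no library could be left out.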
